A study of Mus musculus with 48 samples.

Results

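Imprinted genes are expressed from the maternal or the paternal copy only, and many of them set the size of the embryo and placenta. *Igf2* (insulin-like growth factor 2) is the paternally expressed growth factor of this group, *Igf2r* encodes the receptor that carries IGF2 to the lysosome for degradation, and *H19* is the maternally expressed non-coding RNA that shares an imprinted region with *Igf2*. The imprints are kept as DNA methylation, which draws on methyl groups supplied through folate, and most of these genes are expressed strongly before birth and far less in adult liver. Their expression was examined here in adult offspring to ask whether Se and folate, given to the dam or to the offspring after weaning, were followed by a difference in either tissue. The genes were *Igf2*, *H19*, *Peg3*, *Mest*, *Dlk1*, *Cdkn1c*, *Grb10*, *Plagl1*, *Igf2r* and *Meg3*, and the probes were those whose accession was listed for one of these symbols in a RefSeq gene table. Of these 10 genes, 9 had a probe, with 18 probes in all, among 18434 named genes and 41174 probes. No probe was matched to *H19*, which was not analysed here.

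RNA of liver or whole colon from C57/BL6 offspring aged 12 weeks was hybridised to 48 Agilent 2-colour arrays, 24 per tissue. All dams and offspring received a high-fat diet, in which Se was 0.44 mg/kg in diet H against 0.08 mg/kg in diet L, and folate was 2.4 mg/kg against 0.4 mg/kg. The first letter of the groups HH, HL, LH and LL gives the diet of the dam from before mating to weaning, and the second letter gives the diet of the offspring after weaning. The liver groups held 5 HH mice and 6 mice of each of the other groups, because 2 HH arrays carried RNA of the same animal and were averaged, and each colon group held 6 mice. No animal was listed for both tissues, and litters were not given, so that mice of one dam cannot be recognised.

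Mouse RNA carried Cy3 and a common reference RNA carried Cy5 on every array, and values are log2 ratios of mouse over reference. A ratio of 0 means the same signal as the reference, and ratios of different genes do not rank the genes by abundance. The reference is described as whole pregnant mouse with foetus in one source and as pooled intestinal and liver RNA in another. The markers of fetal liver and blood *Afp* and *Hbb-y* were well above background in the reference on all 48 arrays, and *Hbb-bh1* on 23. Of the same marker list, *Hba-x* was so on 2 arrays and *Lin28b* on 0. *Afp* and *Hbb-y* were also well above background on all 24 liver arrays, with mean ratios of 0.46 and 0.72 there. These fetal markers therefore do not tell the descriptions of the reference apart. The mean ratio of 5 skeletal muscle markers was -4.77 to -4.00 in the liver mice and -4.93 to -4.30 in the colon mice. Both tissues thus lay far below the reference for these genes. Which description of the reference holds was not tested. Tissue identity was checked with markers. The 5 hepatocyte genes were all higher in liver, with a median difference of 5.49, and the 5 colon epithelial and 5 smooth muscle genes were all higher in colon, with medians of -5.29 and -4.28 for liver minus colon. In liver 59.5% of all probes were well above background on at least 12 of the 24 arrays, against 69.5% in colon. *Xist*, the RNA of the inactive X chromosome, exceeded a log2 Cy3 signal of 9 on 1 liver array and 6 colon arrays, although the offspring are described as male. These mice were kept, and the results without them are given under the dependence on the processing.

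*Igf2* lies at 7:142650768-142666816 in the GRCm38.p6 annotation, and the cell cycle inhibitor gene *Cdkn1c* lies on the same chromosome at 7:143458339-143461059. *Peg3*, which encodes a zinc finger protein, is at 7:6703892-6730462. *Mest*, which encodes a hydrolase-like membrane protein, is at 6:30733506-30748466, the zinc finger gene *Plagl1* at 10:13090832-13131694, and *Grb10*, an adaptor that restrains insulin and IGF receptor signalling, at 11:11930499-12037428. *Dlk1*, a membrane-bound Delta-like protein, at 12:109452485-109463336 and the non-coding RNA *Meg3* at 12:109540996-109571729 share an imprinted region, and *Igf2r* is at 17:12682406-12769706.

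Promoter windows of *Plagl1*, *Meg3* and *Igf2* are shown because these genes had the largest differences between the tissues. Each window runs from 250 bases before to 50 bases after a RefSeq start site, and for each gene the window with the most matches is printed. Capitals mark TATAAA and GGGCGG, the core letters of a TATA box and of a GC box, on either strand. The windows are chr10:13090582-13090881 (plus strand), chr12:109540746-109541045 (plus strand) and chr7:142657447-142657746 (minus strand) of GRCm38.p6.
Plagl1: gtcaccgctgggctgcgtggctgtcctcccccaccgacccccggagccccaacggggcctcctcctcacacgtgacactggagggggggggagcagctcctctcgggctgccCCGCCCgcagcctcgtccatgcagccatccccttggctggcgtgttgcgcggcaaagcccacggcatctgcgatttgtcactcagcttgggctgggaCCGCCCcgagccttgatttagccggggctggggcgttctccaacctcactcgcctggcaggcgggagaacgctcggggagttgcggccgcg
Meg3: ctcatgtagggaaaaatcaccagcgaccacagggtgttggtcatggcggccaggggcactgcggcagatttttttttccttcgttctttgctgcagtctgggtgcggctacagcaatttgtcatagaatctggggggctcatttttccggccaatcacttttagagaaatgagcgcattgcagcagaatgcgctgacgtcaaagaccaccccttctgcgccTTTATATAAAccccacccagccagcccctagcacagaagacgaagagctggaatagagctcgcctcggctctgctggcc
Igf2: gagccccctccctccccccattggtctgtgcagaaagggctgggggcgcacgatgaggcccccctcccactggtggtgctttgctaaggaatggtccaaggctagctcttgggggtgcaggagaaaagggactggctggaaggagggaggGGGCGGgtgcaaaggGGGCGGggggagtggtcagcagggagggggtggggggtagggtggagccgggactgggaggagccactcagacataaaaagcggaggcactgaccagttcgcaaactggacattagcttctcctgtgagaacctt

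The *Meg3* window held TATAAA on both strands, overlapping, at -29 and -25 from the start site. The *Plagl1* window held GGGCGG on the minus strand at -138 and -41, and the *Igf2* window held it on the plus strand at -100 and -85. Of 32851 windows of the same length, 13.6% held TATAAA and 35.7% held GGGCGG. Windows were listed for 8 of the 10 genes, 15 in all, of which 1 held TATAAA and 8 held GGGCGG. CpG dinucleotides, the sites of DNA methylation, numbered 26 in the *Plagl1* window, 13 in that of *Meg3* and 7 in that of *Igf2*, against a median of 7 over all windows. The arrays do not measure methylation, and the letters are given as context only.

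All 18 probes were well above background in the Cy5 channel, the reference, on 48 of 48 arrays. In the Cy3 channel, the mouse, each gene is described by its brightest probe unless stated. In the colon all 9 genes were well above background on all 24 arrays, and in the liver 7 were. *Dlk1* was above background on 16 of 24 liver arrays, with a median Cy3 intensity of 87.75 over a local background of 39. *Peg3* was above background on 5 of 24 liver arrays, with a median of 84 over 40, so that its liver values are close to the lowest that could be read. Among the 18 probes, 10 passed on at least 12 liver arrays and 18 on at least 12 colon arrays. The probes that passed on no liver array were 3 probes to the *Meg3* transcript NR_003633, and each of them passed on 24 of 24 colon arrays.

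**Figure D1:**
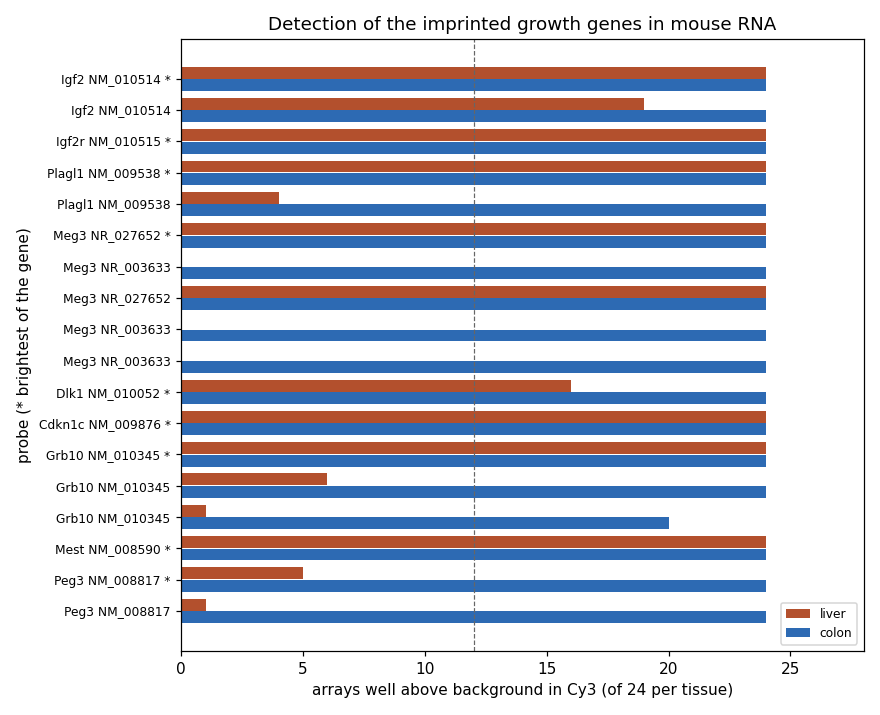
Number of arrays, of 24 per tissue, on which each of the 18 probes was well above background in Cy3, with liver in red and colon in blue. The dashed line is at 12 arrays and an asterisk marks the brightest probe of a gene. Colon bars reach 24 for 17 of the 18 probes, and 3 *Meg3* probes have no liver bar.

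For the 5 genes called between liver and colon, expression relative to the reference differed between the tissues far more than between diets. *Mest* differed about as much between tissues as between HH and LH livers, and for *Dlk1* no difference between tissues was settled. Of the 9 genes, 5 were lower in liver by more than 1.5-fold at an FDR under 0.05, namely *Plagl1*, *Meg3*, *Igf2*, *Cdkn1c* and *Grb10*. Of all probes, 15.7% were called lower and 14.6% higher in liver, and 0 of the 9 genes were called higher. *Igf2r*, *Mest* and *Peg3* passed the FDR in the same direction with a fold change under 1.5, and passed the fold limit too under some other array processing, given with their values. The test was limma's moderated test on 23 liver and 24 colon mice, with slide as a random block, and each slide carried arrays of one tissue, so that a slide effect is separated from tissue only through the spread between slides.

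The growth factor gene *Igf2* had log2 ratios of -1.87 to -1.26 in liver, with a median of -1.54, and of -0.35 to 0.35 in colon, with a median of -0.01. The colon was thus close to the reference, and no liver mouse came near the lowest colon mouse. Liver minus colon was -1.56 ± 0.07 (SE, n = 23 and 24, adjusted p = 1.88e-25, limma). The probe was spotted 10 times on every array, and the SD of these spots within an array was 0.0775 in liver and 0.107 in colon, against 0.185 and 0.176 between mice of a group. The second *Igf2* probe, well above background on 19 of 24 liver arrays, gave -0.87 ± 0.09 (adjusted p = 6.91e-12).

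*Plagl1*, a transcription factor known for its place in a network of imprinted genes, ranged from -1.68 to -0.47 in liver, with a median of -1.23, and from 0.11 to 0.99 in colon, with a median of 0.64. On this probe every colon mouse was above the reference and every liver mouse below it. The difference was -1.86 ± 0.09 (adjusted p = 1.02e-23). The second *Plagl1* probe gave -0.01 ± 0.05 (adjusted p = 0.847). It was well above background on 4 of 24 liver arrays, with a median Cy3 intensity of 81.5 over 39.5 there, so that it gives no size and the call rests on the brighter probe. In colon the second probe was well above background on 24 of 24 arrays. Its ratios ranged from -0.28 to 0.32 there, with a mean of -0.05, so that the probes differed in the colon ratio to the reference.

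*Meg3*, the maternally expressed non-coding RNA next to *Dlk1*, ranged from -2.33 to -1.35 in liver, with a median of -1.79, and from -1.12 to 0.20 in colon, with a median of -0.20. The tissues did not overlap, and the difference was -1.61 ± 0.11 (adjusted p = 3.64e-17). Its 5 probes fall into those for NR_027652 and those for NR_003633. The second probe for NR_027652 gave -0.79 ± 0.09 (adjusted p = 1.91e-10). The 3 probes for NR_003633, dark in liver, were at least 2.68, 1.86 and 2.23-fold higher in colon, where the liver signal was set to the lowest signal read as well above background on each array or to its own value where that was higher. These fold bounds were not tested, and the adjusted p of at most 2.49e-19 (limma) belongs to the measured ratios of the same probes. These probes had mean ratios of 1.29, 0.75 and 0.83 in colon, above the reference in all 24 mice, whereas both NR_027652 probes had mean ratios of -0.24 and -0.11. *Meg3* probes therefore agreed in the direction between tissues and not in the ratio to the reference.

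*Dlk1*, in the same imprinted region, ranged from -0.64 to -0.18 in liver and from -0.76 to -0.23 in colon, with medians of -0.43 and -0.49. These ranges overlapped almost fully, and the difference was 0.09 ± 0.05 (95% interval -0.01 to 0.19, adjusted p = 0.122). With the processed signals of the scanner software it was -0.37 ± 0.09 (adjusted p = 0.000257), so that neither a difference nor its direction was settled for *Dlk1*. *Rian*, another non-coding RNA of this region, had mean ratios of -0.80 in liver, where no array read it well above background, and 0.29 in colon.

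*Cdkn1c*, which encodes the inhibitor p57 that takes cells out of the cycle, ranged from -2.39 to -1.58 in liver and from -1.38 to -0.56 in colon, without overlap. The difference was -0.95 ± 0.07 (adjusted p = 2.13e-16). *Grb10* ranged from -3.89 to -3.02 in liver and from -2.84 to -2.36 in colon, also without overlap, and the difference was -0.89 ± 0.07 (adjusted p = 5.92e-15). The other *Grb10* probes gave 0.17 ± 0.06 (adjusted p = 0.0216) and 0.05 ± 0.04 (adjusted p = 0.259). They were well above background on only 6 and 1 of 24 liver arrays, against 24 and 20 colon arrays, so that they give no direction and the call rests on the brightest probe.

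The smaller differences were -0.46 ± 0.09 for the receptor gene *Igf2r* (adjusted p = 1.7e-05), -0.48 ± 0.09 for *Mest* (adjusted p = 8.02e-06) and -0.41 ± 0.04 for *Peg3* (adjusted p = 2.12e-13). *Igf2r* ranged from -1.22 to -0.07 in liver and from -0.77 to 0.35 in colon, and *Mest* from -3.53 to -1.99 and from -3.08 to -2.29, so that the tissues overlapped for both. *Peg3* did not overlap, with -0.59 to -0.19 in liver and -0.14 to 0.18 in colon, although its liver signal was above background on only 5 arrays, so that the size of its difference was not measured. It was -0.83 with an offset of 0 and -1.61 with the processed signals. *Igf2r* was -0.99 and *Mest* -1.10 with median centring, which also moved the median of all probes to 0.22, and *Mest* was -0.63 with the processed signals. The second *Peg3* probe was well above background on 1 of 24 liver arrays and gives no size.

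**Figure D2:**
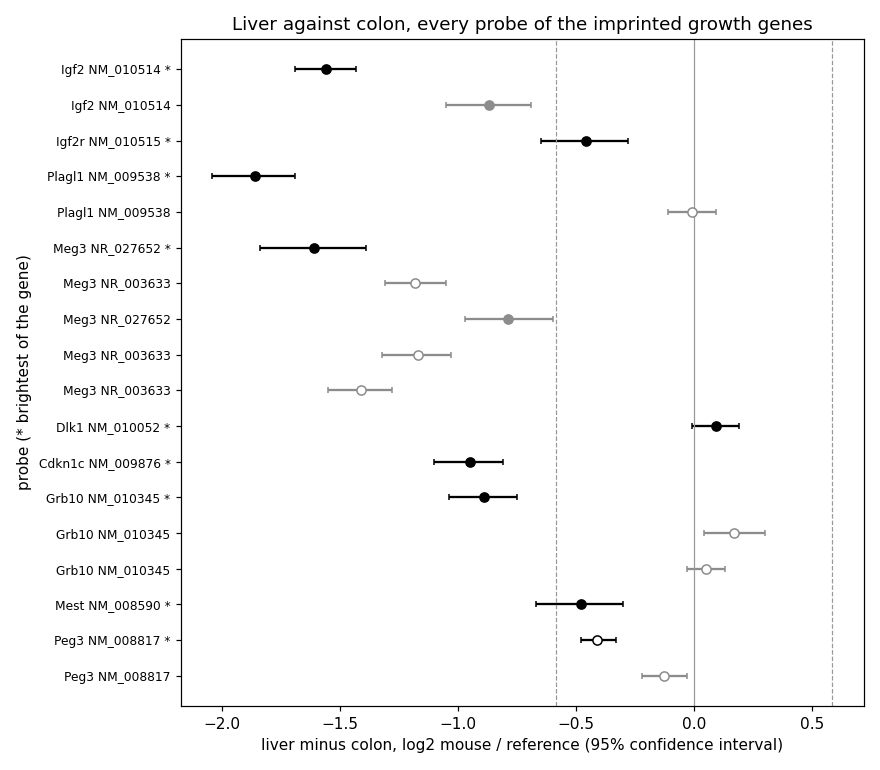
Liver minus colon difference of the log2 ratio for each of the 18 probes, as the limma estimate with its 95% confidence interval. Black points are the brightest probe of a gene, grey points the others, open points passed background on fewer than 12 of 24 liver arrays, and dashed lines mark 1.5-fold. The brightest probes of 5 genes lie left of the dashed line, from -1.86 for *Plagl1* to -0.89 for *Grb10*, and *Dlk1* lies at 0.09.

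Colon and liver differ in the cells they hold, and markers of several of these cells moved with the difference. The mean ratio of the 5 fibroblast markers was -0.90 to -0.07 in the colon mice and -3.54 to -1.68 in the liver mice, and that of the smooth muscle markers was 1.18 to 1.75 and -3.30 to -2.78. The 5 fibroblast, 5 smooth muscle and 5 adipocyte markers were all called lower in liver, as were 3 of 5 markers of enteric neurons and glia, whereas 4 of 5 endothelial markers were called higher. Fewer cells of a type and less RNA per cell cannot be told apart in whole tissue, and the part of these cells in the differences was not tested.

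Ordered by mean ratio, the 4 colon groups stood above the 4 liver groups for every gene but *Dlk1*. Each step was set against the spread, taken as the larger SD of the groups on either side of it. In that order the step from the lowest colon group to the highest liver group was larger than the spread for *Plagl1*, *Igf2*, *Meg3*, *Cdkn1c*, *Grb10*, *Peg3* and *Igf2r*, at 1.67, 1.46, 1.43, 0.84, 0.75, 0.36 and 0.29. For *Igf2r* this was narrow, since the liver LH group had an SD of 0.29 and the colon HL group, not a neighbour of this step, an SD of 0.31. For *Mest* the step was 0.12 and within the spread. No step between neighbouring groups of the same tissue exceeded the spread for any of the 9 genes. Groups that are not neighbours can lie farther apart than that. For *Plagl1* the colon LH and HH groups had means of 0.78 and 0.54 with SDs of 0.19 and 0.20.

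**Figure D3:**
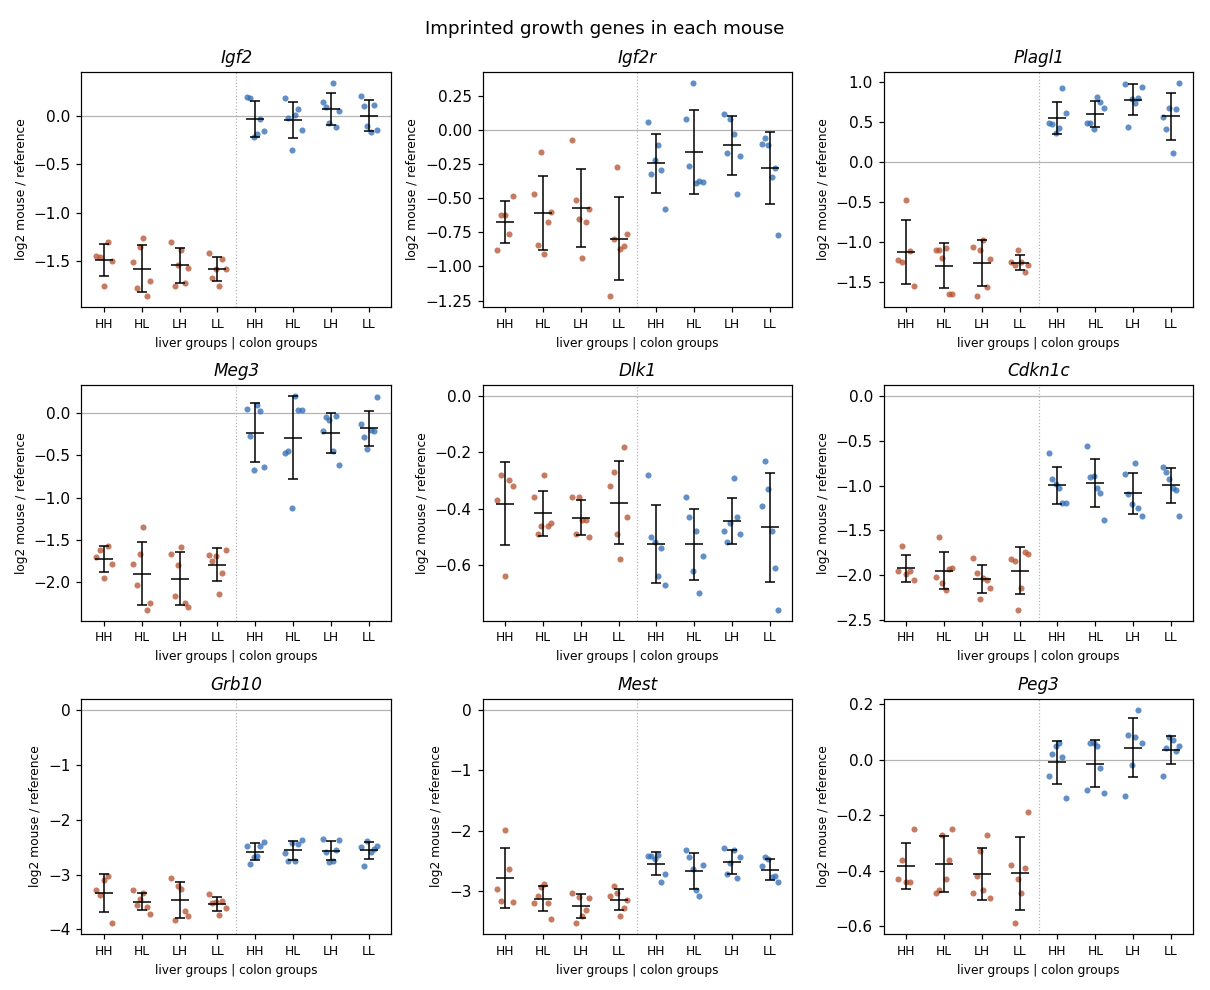
Log2 ratio of mouse over reference for each of the 9 genes in every mouse, by diet group, with liver in red and colon in blue. Bars show the mean and SD of each group (5 HH and 6 other mice per liver group, 6 mice per colon group), and the scale of the vertical axis differs between genes. Groups of one tissue overlap throughout, and one HH liver mouse stands high for *Mest* (-1.99) and *Plagl1* (-0.47).

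Other imprinted genes and the IGF system were set beside them. Of 52 further imprinted genes listed, 48 were measured, and 11 were called higher and 11 lower in liver, with a median difference of 0.06 against 0.01 over all probes. *Slc38a4*, an amino acid transporter gene, and *Plg*, the gene of plasminogen made by hepatocytes, were higher in liver by 6.47 ± 0.12 and 6.10 ± 0.10 (SE, log2). *Kcnq1*, a potassium channel gene, *Nap1l5* and *Ndn* were lower by -3.36 ± 0.07, -2.44 ± 0.06 and -1.08 ± 0.05. Imprinted genes thus went both ways, and the direction of the 5 genes above is not that of imprinted genes as a whole.

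Of 20 genes of the IGF axis, 18 were measured, with 8 called higher and 7 lower in liver. The postnatal growth factor *Igf1* was higher in liver by 5.15 ± 0.08 (SE), its serum carrier *Igfals* by 3.88 ± 0.08, the growth hormone receptor *Ghr* by 3.63 ± 0.13, and the binding proteins *Igfbp1* and *Igfbp2* by 6.63 ± 0.17 and 4.95 ± 0.12. The receptor *Igf1r* was lower in liver by -2.54 ± 0.07, the binding protein *Igfbp5* by -2.20 ± 0.10 and the proteoglycan *Gpc3*, which binds growth factors at the cell surface, by -2.33 ± 0.10. *Igf1* and *Igf2* thus differed between the tissues in opposite directions, each relative to the reference.

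No gene of the 9 was called in any of the 9 diet comparisons of the liver or the 9 of the colon, and none of the 41171 liver or 41173 colon probes was called either, so that 0% was the background in all of them. The study that reported these arrays did list liver probes at the same limits, in HH *vs.* LH, HH *vs.* HL, HH *vs.* LL and LH *vs.* LL. The reason for this difference was not tested. Without the fold limit and with an unadjusted p under 0.05, *Mest* was the only gene with an interval that excluded 0, in the liver in HH *vs.* LH, HH *vs.* HL, HH *vs.* LL and the dam diet. Of all liver probes, 12% had such a p in HH *vs.* LH, 4.37% in HH *vs.* HL, 3.45% in HH *vs.* LL, 3.08% in HL *vs.* LL, 6.38% in LH *vs.* LL and 1.74% in HL *vs.* LH. The share was 4.16% for the dam diet, 1.37% for the offspring diet and 11.4% for their interaction. In the colon it was 3.24%, 1.46%, 1.72%, 1.02%, 2.81% and 2.95% for the same 6 pairs in the same order, 2.11% for the dam diet, 2.03% for the offspring diet and 1.79% for the interaction. The dam diet is the mean of LH and LL minus the mean of HH and HL, and the offspring diet the mean of HL and LL minus the mean of HH and LH.

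Effects of the dam diet on the 9 genes ranged from -0.24 to -0.01 in the liver and from -0.06 to 0.10 in the colon (log2, low minus high). Those of the offspring diet ranged from -0.12 to 0.03 and from -0.13 to 0.06. With the main processing all 9 intervals of both effects lay within 1.5-fold in either direction, in both tissues. In liver those of *Peg3* and *Dlk1*, above background on 5 and 16 of 24 arrays, lay close to the floor and do not bound a diet effect. Over the alternatives run, the liver dam effect reached -0.56 for *Mest*, -0.42 for *Grb10*, -0.34 for *Meg3* and -0.30 for *Igf2* and *Plagl1*. The lowest adjusted p was 0.274 (limma, *Mest*). The bound of 1.5-fold is thus that of the main processing only. With slide as a block in the fit 0 genes were called in each of the 18 comparisons. For *Igf2* the dam diet gave -0.03 (95% interval -0.19 to 0.13) in liver and 0.08 (-0.07 to 0.22) in colon, and the offspring diet gave -0.06 (-0.22 to 0.10) and -0.04 (-0.19 to 0.10). For *Igf2r* the dam diet gave -0.04 (-0.26 to 0.18) in liver and 0.01 (-0.19 to 0.21) in colon. For *Meg3* it gave -0.06 (-0.29 to 0.16) and 0.06 (-0.21 to 0.32). The intervals of the interaction of dam and offspring diet were wider, reaching from -0.72 to 0.91 in liver, and lay within 1.5-fold for 5 of 9 genes there and 6 of 9 in the colon.

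**Figure D4:**
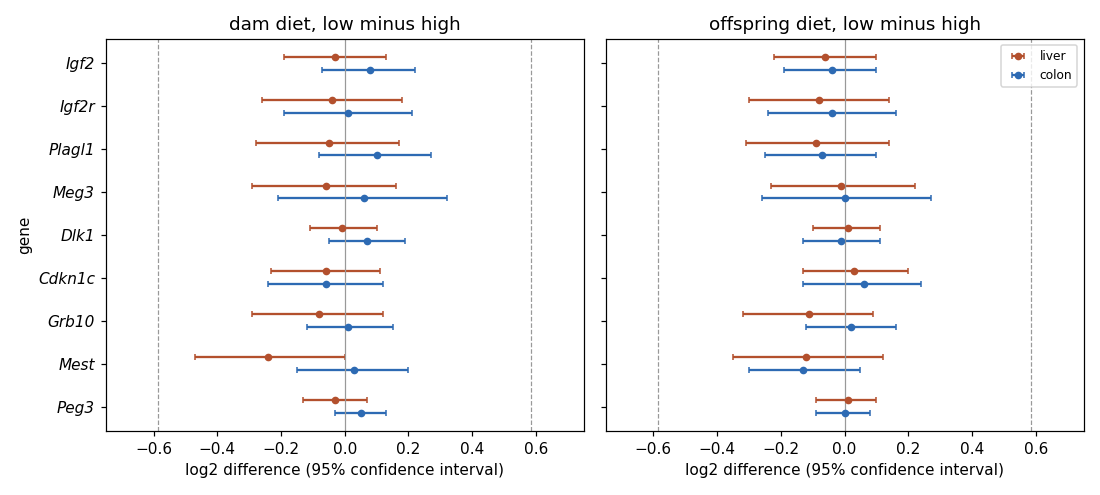
Effect of the dam diet and of the offspring diet, low minus high Se and folate, on the log2 ratio of the 9 genes, as limma estimates with 95% confidence intervals, liver in red and colon in blue. Dashed lines mark 1.5-fold in either direction. All intervals lie between the dashed lines, and the liver value of *Mest* for the dam diet (-0.24) is the farthest from 0.

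*Mest* is known as a gene of mesoderm and of growing adipose tissue. Its log2 ratios in the HH livers were -3.18, -3.16, -2.96, -2.63 and -1.99. The HL livers ranged from -3.45 to -2.88 with a median of -3.14, the LH livers from -3.53 to -3.03 with a median of -3.20, and the LL livers from -3.40 to -2.92 with a median of -3.11. The groups overlapped, and HH *vs.* LH gave -0.46 ± 0.16 (LH minus HH, adjusted p = 0.284, limma). The dam diet gave -0.24 (95% interval -0.47 to 0.00, adjusted p = 0.999, limma). The dam effect in liver minus that in colon was -0.26 ± 0.13 (adjusted p = 0.856).

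This difference was smaller without 1 mouse. HH liver replicate 3, the mouse measured on both arrays, had the *Mest* value of -1.99, and its arrays gave -2.06 and -1.93. It also had the highest *Plagl1* value of all livers, -0.41 and -0.53 on its arrays, and the lowest *Dlk1* value. Without it, *Mest* LH minus HH was -0.26 ± 0.13 (adjusted p = 0.363) and the dam diet -0.14 ± 0.09 (adjusted p = 0.962). The mean ratio of the 5 fibroblast markers in this liver was -1.68, against -3.54 to -2.85 in the other 22, and none of the other 9 marker lists placed this mouse outside the range of the other livers. The part of fibroblasts in its values was not tested.

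In the colon the lowest p among the 9 genes was that of *Plagl1* in HH *vs.* LH. Its ratios ranged from 0.36 to 0.92 in HH, with a mean of 0.54, and from 0.44 to 0.97 in LH. The difference was 0.23 ± 0.12 (adjusted p = 1, limma), and the groups overlapped. Among the colon marker lists the adipocyte genes had a median dam effect of -0.63, with 1 of 5 at a p under 0.05, and the mean of these genes ranged from -0.90 to 3.45 between colon mice. None of the 48 further imprinted or 18 IGF genes was called for a diet in either tissue. The lowest p of the dam diet among them was that of the non-coding RNA *Kcnq1ot1* in the colon (0.27 ± 0.08, adjusted p = 1, limma).

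Slides differed in the colon. With the 4 diets on each of the 6 colon slides, 40.3% of all colon probes differed between slides at an FDR under 0.05, against 3.24% of liver probes, and 5 of the 9 genes did so in colon and 0 of 9 in liver. Slide means of *Cdkn1c* ran from -1.32 to -0.72 (adjusted p = 0.000189), those of *Igf2r* from -0.48 to 0.04 (adjusted p = 0.00399) and those of *Igf2* from -0.18 to 0.19 (adjusted p = 0.0252, limma). *Grb10* and *Mest* also passed. A span is the highest minus the lowest of 6 slide means, so that its size cannot be set against that of a diet effect. The median span over all colon probes was 0.27. Since each slide carried 1 array of each diet, slide differences fell on all diets alike. The mean of the adipocyte markers ran from 1.15 to 2.69 between colon slides and that of the smooth muscle markers from 1.36 to 1.57. The part of tissue composition in the slide differences was not tested.

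**Figure D5:**
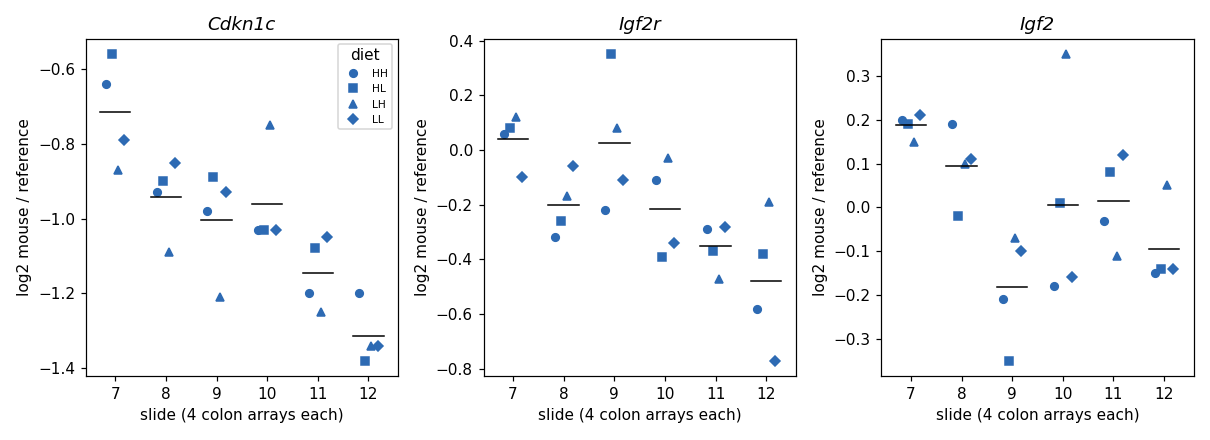
Log2 ratio of *Cdkn1c*, *Igf2r* and *Igf2* in each colon mouse by slide, with 4 arrays per slide, 1 of each diet (symbols), and a line at the slide mean. *Cdkn1c* slide means span -1.32 to -0.72.

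Some pairs of these genes varied together between mice. All 36 pairs of the 9 genes were compared in each tissue over 23 liver and 24 colon mice, 72 pairs in all, with 2-sided permutation tests (100000 resamples) adjusted by Benjamini-Hochberg over the 72. Mice were permuted freely over slides and diet groups, so that differences between slides enter these p-values. Of the 36 pairs, 7 passed an adjusted p under 0.05 in liver and 4 in colon, all with a positive r, and the median r over all pairs was 0.03 and -0.10. The share of pairs of other genes that would pass was not computed, so that these counts do not set the 9 genes apart. *Igf2* and *Meg3*, which lie on different chromosomes, had a Pearson r of 0.81 in liver (p = 1e-05, the smallest the resamples can give, adjusted p = 0.00072, permutation) and a Spearman rho of 0.80 (p = 3e-05, adjusted p = 0.00216). Without the 2 mice farthest from the *Igf2* median r was 0.74, and for deviations from slide means it was 0.80. It was 0.43 when arrays were centred on their median in place of loess. As a background, 1.36% of 12978 other genes that were above background in liver followed *Igf2* at least as closely as *Meg3* did, both as deviations from group means. Other liver pairs that passed varied in this percentage. It was 1.36% for genes that followed *Plagl1* at least as closely as *Mest* did, and 0.67% with *Mest* followed. For *Plagl1* and *Grb10* it was 2.52% with *Plagl1* followed and 3.17% with *Grb10* followed. It was 19.7% for *Igf2* followed as closely as by *Grb10*, and 15.1% for *Meg3* followed as closely as by *Grb10*. For *Grb10* followed as closely as by *Mest* it was 9.92%. With the other gene of these last pairs followed it was 14.7%, 8.46% and 5.27%. The share of spots above background in Cy3 on an array moved with *Igf2* (r = -0.69, permutation p = 0.00021, adjusted over 18 relations p = 0.00378, rho -0.69 with p = 0.00042 and adjusted p = 0.00756, and r = -0.65 without the 2 farthest arrays). By rank the share also moved in liver with *Meg3* (rho -0.54), *Dlk1* (rho -0.55) and *Mest* (rho -0.52), with adjusted permutation p of 0.0388, 0.0388 and 0.0412. By Pearson r their adjusted p were 0.0523, 0.0523 and 0.872. In colon it moved with *Peg3* (r = 0.61, adjusted permutation p = 0.0125). With this share held constant r of *Igf2* and *Meg3* was 0.74, and that of *Igf2* and *Dlk1*, a pair that passed, was 0.37 against 0.59. The part of this share in these relations was not tested further.

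*Plagl1* and *Grb10* had an r of 0.73 in liver (permutation p = 4e-05, adjusted p = 0.00144) and a rho of 0.74 (p = 0.0001, adjusted p = 0.0036), with 0.67 without the 2 farthest mice and 0.56 within slides. *Plagl1* and *Mest* had an r of 0.75 (permutation p = 0.00021, adjusted p = 0.00504) and a rho of 0.57 (p = 0.00475, adjusted p = 0.0329). It dropped to 0.43 without the 2 mice farthest from the *Plagl1* median, so this relation rested on those mice, HH replicate 3 among them. In colon *Igf2r* and *Cdkn1c* had an r of 0.63 (permutation p = 0.00092, adjusted p = 0.0137) and a rho of 0.67 (p = 0.00049, adjusted p = 0.0104), with 0.61 without the 2 farthest mice and 0.18 for deviations from slide means. The colon relation thus did not hold within slides, and r was 0.07 with the processed signals of the scanner software. For the other colon pairs that passed, r of deviations from slide means was lower too. It was 0.23 against 0.62 for *Dlk1* and *Cdkn1c*, 0.41 against 0.56 for *Dlk1* and *Mest*, and 0.46 against 0.59 for *Igf2r* and *Mest*. Of 14717 other genes, 9.19% followed *Cdkn1c* at least as closely as *Igf2r* did in colon, and 3.25% followed *Igf2r* at least as closely as *Cdkn1c* did.

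The genes whose ratios were most like those of a member were found as Pearson correlations of deviations from the group means among genes above background on at least 80% of the arrays of the tissue, over 23 liver or 24 colon mice that share their slides. They are descriptions without a test. In liver *Igf2* was most like *Slc5a4b* (0.94) and *Cacna2d1* (0.93), *Meg3* like *Adam19* (0.95) and *Nrap* (0.94), *Grb10* like *Crip1* (0.96) and *C1qc* (0.91), and *Mest* like *Prmt2* (0.88) and *Fam111a* (0.85). In colon *Igf2* was most like *G6pc3* and *Nes* (both 0.85), *Cdkn1c* like *Pyurf* (0.93) and *Ndufaf6* (0.92), *Igf2r* like *Pdxk* (0.92) and *Ralb* (0.87), and *Plagl1* like *Tmx4* (0.90) and *Cldn12* (0.88).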

How the data were processed

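Per the file headers, the authors deposited median spot and local background intensity in both channels from Agilent Feature Extraction, without normalization, and a table of log2 ratios, which matched loess without background correction (r at least 0.9997 per array). The submitters' processing notes name limma and R 3.0.2. Here, with R 4.3.3 and limma 3.58.1, a local background brighter than its spot was set to the median of the array, because left unchanged such spots narrowed the spread of the ratios on some arrays. Background was then corrected with normexp (offset 50), ratios were normalized by global loess within each array with control and outlier spots left out, and spots of a probe were averaged. Each tissue was fitted as 4 groups, and all 8 groups together for tissue (slide correlation 0.207), with lmFit and eBayes. Adjusted p-values are Benjamini-Hochberg over all probes, and a probe was called when the adjusted p was below 0.05 and the change exceeded 1.5-fold. The arrays of one HH liver mouse correlated in their deviations (r = 0.861, other pairs at most 0.0326) and were averaged. The brightest probe in Cy3 stood for a gene. The number of arrays limits the precision, and p-values measure the spread between mice, which may share dams. Of 41174 probes, 27050 were named through RefSeq accessions (GRCm38.p6 table), and promoter sequences are from RefSeq. Genes, lists and tests were chosen with earlier results of these data known, and the correlations between genes were added after seeing the data. The models were tested on simulated data.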

Additional observations from a re-analysis of the deposited data

Results flagged for a closer look

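In 2 of 72 groups of mice 1 mouse stood apart from the rest of its group, by Dixon's criterion on the gap to the nearest mouse over the range, and about 1 in 20 groups would do so by chance. Both were for *Dlk1*. HH liver replicate 3 had a log2 ratio of -0.64, below all other livers, and this is the mouse with the highest *Mest* and *Plagl1* values. LH colon replicate 4 had a log2 ratio of -0.29, the highest of its group.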

How the results depend on the processing

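The count of 5 genes called between liver and colon became 8 with the FDR alone and no fold change, which 63.8% of all probes passed, and 10 when each of the 18 probes was counted on its own. It was 7 with median centring, 7 with the processed signals and 6 with an offset of 0, and 5 under each other alternative run and without any 1 of the 47 mice. Of all probes, 15.7% were called lower and 14.6% higher in liver, against 24.8% and 33.8% with median centring, 25.4% and 23.7% with the processed signals and 21.2% and 20.7% with an offset of 0. For the diets 0 genes were called under every alternative run. Leaving out the mice with *Xist* signal changed neither. Median centring in place of loess moved the median of all probes to 0.22 (liver minus colon) and gave *Mest* -1.10 and *Igf2r* -0.99, past the fold limit. The processed signals gave *Mest* -0.63 and *Peg3* -1.61, and an offset of 0 gave *Peg3* -0.83. The cause was not tested. Over 59 alternatives *Igf2* ranged from -2.17 to -1.39, *Plagl1* from -2.46 to -1.70, *Meg3* from -2.25 to -1.44, *Cdkn1c* from -1.55 to -0.89 and *Grb10* from -1.51 to -0.71. *Dlk1*, which was not called, ranged from -0.37 to 0.12 and was negative in 3, at -0.37 with processed signals and -0.05 with both median centring and an offset of 0. *Mest* LH minus HH in liver ranged from -0.64 to -0.26, with the lowest adjusted p at 0.123 (limma). Low signal over background limits *Peg3* and *Dlk1* in liver. With slide as a replicate block, since each slide carried all 4 diets of a tissue (the HH mouse on 2 slides was entered on 1), *Mest* LH minus HH was -0.45 ± 0.15 (adjusted p = 0.187, limma) and 0 genes were called in each of the 18 diet comparisons.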
